A study of Mus musculus with 2 samples.

Results

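The genes described here are 10 C-type lectins and mannose receptors of myeloid cells: Mrc1, Mgl2, Clec10a, Cd209a, Clec4b1, Clec4d, Clec4n, Clec7a, Clec12a and Clec4a2. They were taken by symbol from the gene table of the single-cell matrices, which lists 32285 genes. Of the 10 symbols 9 had a row there, each with the Ensembl identifier that GENCODE vM21 gives for the symbol. No row carried Clec7a, which encodes the beta-glucan receptor dectin-1 and which GENCODE vM21 classes as a polymorphic pseudogene, so no level of Clec7a is given. The cells were taken at week 2, per the time label, from B6 mice given chronic kidney disease by the plant toxin aristolochic acid, and were sorted for CD45, a surface protein shared by leukocytes. They were captured in 1 gene expression library as 2 hashed samples, in which an antibody-borne barcode records the sample of each cell. The title names W1 and W2 and 1 mouse, and no label says whether the hashed samples are separate animals or separate weeks. No untreated kidney was used here. Cell classes were therefore compared with each other in the same diseased tissue, with no test, and of paired values the first always belongs to hashed sample 1.

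C-type lectins are receptors with a carbohydrate recognition fold that often, but not always, binds sugars in a calcium-dependent way. On macrophages and dendritic cells they take up glycoproteins and microbes, and some of them signal. Clec4d and Clec4n couple to the adaptor Fc receptor gamma chain (Fcer1g) and the kinase Syk, which leads to the Card9, Bcl10 and Malt1 complex, whereas Clec12a and Clec4a2 carry inhibitory motifs that recruit phosphatases. Mrc1, also called CD206, is an endocytic receptor for mannosylated glycoproteins and collagens and is a common marker of tissue macrophages. Mgl2 and Clec10a bind terminal galactose and N-acetylgalactosamine, and Cd209a is a mouse relative of human DC-SIGN.

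The promoters of 4 genes are shown because Mrc1 and Mgl2 had opposite patterns along the MHC class II level of macrophages, while Mgl2, Cd209a and Clec4b1 all had their highest class level in type 2 dendritic cells. Each line gives the 220 bases from 250 to 31 bases before the RefSeq start, 5′ to 3′ on the strand of the gene, from the GRCm38.p6 promoters of RefSeq. The nearest 30 bases were left out because GENCODE exons of Mrc1 and Mgl2 reach into them. Capitals mark GAGGAA, the core letters bound by the myeloid factor PU.1, or its reverse complement.
Mrc1: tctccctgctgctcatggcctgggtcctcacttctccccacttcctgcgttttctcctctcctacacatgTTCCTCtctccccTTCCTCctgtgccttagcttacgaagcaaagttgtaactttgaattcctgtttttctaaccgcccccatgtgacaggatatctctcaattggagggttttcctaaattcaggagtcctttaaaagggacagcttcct
Mgl2: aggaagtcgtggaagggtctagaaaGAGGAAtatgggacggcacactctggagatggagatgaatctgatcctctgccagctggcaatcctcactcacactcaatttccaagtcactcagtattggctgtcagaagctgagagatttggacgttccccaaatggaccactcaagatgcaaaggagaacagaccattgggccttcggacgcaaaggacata
Cd209a: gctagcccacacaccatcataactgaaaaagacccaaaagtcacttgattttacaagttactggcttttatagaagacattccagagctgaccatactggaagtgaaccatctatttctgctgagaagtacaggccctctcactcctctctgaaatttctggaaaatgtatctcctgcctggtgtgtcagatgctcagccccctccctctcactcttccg
Clec4b1: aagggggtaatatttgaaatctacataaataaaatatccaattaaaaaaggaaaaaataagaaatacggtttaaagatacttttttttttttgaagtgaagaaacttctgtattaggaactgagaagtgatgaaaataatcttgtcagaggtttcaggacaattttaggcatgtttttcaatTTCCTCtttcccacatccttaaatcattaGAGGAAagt
The Mrc1 stretch lies at chr2:14229164-14229383 on the plus strand, and that of Mgl2 at chr11:70130107-70130326 on the plus strand. The Cd209a stretch is chr8:3749015-3749234 on the minus strand, and that of Clec4b1 is chr6:123049712-123049931 on the plus strand. GAGGAA on either strand occurred 2 times for Mrc1, 1 time for Mgl2, 0 times for Cd209a and 2 times for Clec4b1, and in 20.4% of the 32841 RefSeq promoter stretches of this length. Of the 4 stretches only that of Cd209a held TGCTGA, a MAF half-site (1 match, 14.4% of all stretches). None of the 4 held TGANTCA (AP-1, 6.1% of all stretches), a STAT6 site (5.2%) or a composite of ETS and IRF sites (2.0%) on either strand. These are matches of letters and say nothing about binding. RefSeq entries were found for 8 of the 10 genes, with none for Clec10a and Clec4n.

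Mrc1 lies on chromosome 2 (14229392 to 14332057) and Cd209a on chromosome 8 (3743397 to 3748984), both in GRCm38 coordinates. Mgl2 (chromosome 11, 70130329 to 70137550) and Clec10a (70156197 to 70170834) are neighbours, 18.6 kb apart. The other 6 genes are on chromosome 6, and the 4 Clec4 genes among them span 225.3 kb. Several have near copies. GENCODE transcripts of Mgl2 and Clec10a share an identical run of 183 bases, and of 106 bases within their last 500 bases, where a 3′ library reads. The longest run shared by Clec4a2 and Clec4a4 is 163 bases, and 41 within the last 500, while Clec4b1 and Clec4b2 share 32 and 24. Reads that fit both of a pair may have been split or dropped by the authors' counting, so the levels of Mgl2, Clec10a and Clec4a2 are uncertain to that extent.

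After filtering, 6556 of 7015 barcodes remained, 3089 and 3467 per hashed sample, with medians of 5669 and 6568 unique molecular identifiers (UMIs, 1 per captured RNA molecule). No barcode was shared by the hashed samples. Classes were gated on marker genes that include no C-type lectin. Resident macrophages, with at least 100 UMIs of C1qa, C1qb and C1qc per 10000, numbered 1078 and 1642 cells, and all 10 of their markers reached 50 counts per 1000000 UMIs of the class (CPM). The 10 include the C1q genes that set the gate. Ccr2 stood at 600 CPM in this class, against 1159 CPM in classical monocytes. Cells of the Ear2 state (54 and 98) and the Arg1 state (66 and 128), described below, were among them. Resident is thus a name for the C1q gate, and the origin of these cells was not tested. Cells with 30 to 100 such UMIs, called C1q-intermediate, numbered 339 and 469. Type 2 dendritic cells numbered 196 and 298, classical monocytes 99 and 116, migratory dendritic cells 56 and 37, type 1 dendritic cells 31 and 63, and patrolling monocytes only 13 and 23. Another 227 and 241 cells met no gate and stand in none of the class orders below. These unassigned cells held Cd209a at 64.2 and 184 CPM, Mgl2 at 532 and 1144 CPM and Clec4d at 137 and 70.7 CPM. The labels had weak points: Ly6c2 was under 50 CPM in the classical monocytes, and Flt3 and Zbtb46 were under 50 CPM in the type 2 dendritic cells, which were led by Mgl2, Cd209a, Ccl17 and H2-DMb2. T cells, 945 and 470 of them with medians of 3835 and 3407 UMIs, should lack these receptors and serve as the measure of free RNA in droplets. Droplets with T cell markers and at least 30 C1q UMIs per 10000 (14 and 8) were in no class. The measure thus leaves out the T cell droplets richest in C1q RNA. The 22 and 28 proximal tubule barcodes should lack these receptors too, yet held Mgl2 at 425 and 584 CPM and Mrc1 at 196 and 337 CPM, far above the T cells. Whether these are mixed droplets was not tested.

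**Figure D1:**
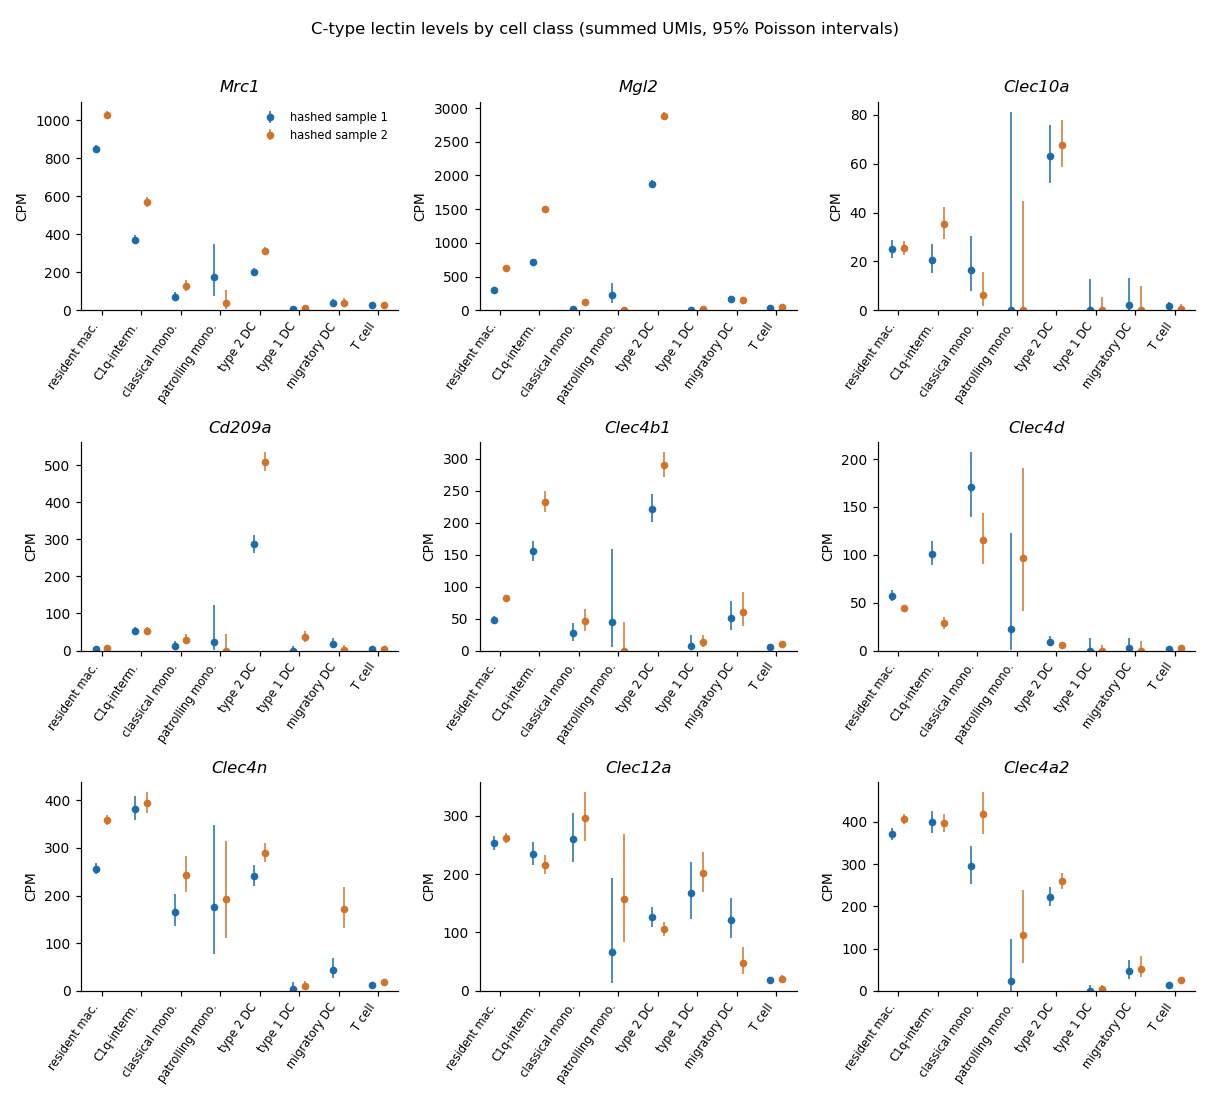
Level of each of the 9 lectins in CPM of the summed UMIs (vertical axes, linear from 0) in 7 myeloid classes and T cells, 1 point per hashed sample with its 95% Poisson interval, which covers counting error only. Mrc1 is highest in resident macrophages (850.3 and 1029 CPM), Mgl2 in type 2 dendritic cells (1874 and 2887 CPM) and Clec4d in classical monocytes (171 and 115 CPM).

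Mrc1 was highest in resident macrophages. Its level was 850.3 CPM (95% Poisson interval 829 to 872) and 1029 CPM (1011 to 1047) there, 372 and 568 CPM in C1q-intermediate cells and 203 and 313 CPM in type 2 dendritic cells. The ranges of these 3 classes did not overlap. Classical monocytes had 69.8 and 128.9 CPM, patrolling monocytes 176 and 36.3, migratory dendritic cells 37.5 and 39.6 and type 1 dendritic cells 6.84 and 11.4, beside 29.6 and 27.6 CPM in T cells. The 2 monocyte classes could not be ordered, since their ranges overlapped, and the dendritic cells at the end of the order were near or below the T cell level. With each cell thinned to 1000 UMIs, 47.3% (exact binomial interval 44.3 to 50.4) and 54.5% (52.0 to 56.9) of resident macrophages had an Mrc1 UMI, against 4.38% and 2.83% of T cells. Without thinning the shares were 86.9% and 91.1%, against 12.7% and 10.0%. Thinning left out 105 and 122 cells of under 1000 UMIs over all classes.

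Mgl2 had another order. It stood at 1874 and 2887 CPM in type 2 dendritic cells, 714 and 1499 CPM in C1q-intermediate cells and 295 and 629.5 CPM in resident macrophages, and these ranges did not overlap. Classical monocytes held 19.96 and 128.9 CPM, migratory dendritic cells 171 and 145, and type 1 dendritic cells 6.84 and 11.4, with 29.8 and 45.1 in T cells. Hashed sample 1 of the classical monocytes was thus at the T cell level and hashed sample 2 above it. At 1000 UMIs 68.9% (61.9 to 75.3) and 81.8% (76.9 to 86.0) of type 2 dendritic cells had an Mgl2 UMI, against 2.35% and 4.13% of T cells. Clec10a, its neighbour and relative, was low everywhere: 63.2 and 67.9 CPM in type 2 dendritic cells, 20.4 and 35.3 in C1q-intermediate cells, 25.05 and 25.5 in resident macrophages, and 0 UMIs in type 1 dendritic cells (3 counts would be 10.3 and 4.27 CPM).

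Cd209a was also highest in type 2 dendritic cells. It had 287 and 509.7 CPM there, 53.8 and 53.8 CPM in C1q-intermediate cells, and 13.3 and 28.8 CPM in classical monocytes, while resident macrophages (4.52 and 5.66 CPM) were close to T cells (3.80 and 3.40 CPM). In hashed sample 2 the type 1 dendritic cells showed 35.6 CPM, from 25 UMIs in 4.76% of 63 cells, and in hashed sample 1 none. Clec4b1, from the cluster of Clec4 genes on chromosome 6, had 222 and 290.5 CPM in type 2 dendritic cells and 155 and 232 CPM in C1q-intermediate cells, whose ranges overlapped. Resident macrophages had 48.5 and 81.9 CPM of Clec4b1, migratory dendritic cells 51.6 and 60.7, and T cells 6.21 and 10.2.

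Clec4d, which encodes an activating receptor for mycobacterial glycolipid, followed monocytes and neutrophils. Classical monocytes had 171 CPM (140 to 208, 103 UMIs) and 115 CPM (90.8 to 144, 76 UMIs), resident macrophages 57.4 and 44.0 CPM, and type 2 dendritic cells 9.27 and 5.51 CPM. The 11 and 17 neutrophils had 1155 and 1603 CPM, from only 21 and 42 UMIs. The 6 neutrophil markers summed to 49.9 and 63.7 CPM in classical monocytes, none of them reaching 50 CPM, against 18.9 and 14.2 CPM in resident macrophages, and their part in the Clec4d level was not tested. Clec4n, or dectin-2, an activating receptor for fungal mannans, was spread over macrophages (256 and 358 CPM), C1q-intermediate cells (383 and 395), type 2 dendritic cells (241 and 290.2) and classical monocytes (166 and 242), with overlapping neighbours except for the first place of the C1q-intermediate cells. Only 3.42 and 9.96 CPM were found in type 1 dendritic cells, below the 12.01 and 17.5 CPM of T cells.

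The 2 inhibitory receptors differed in dendritic cells. Clec12a, which senses uric acid crystals, stood at 253 and 262 CPM in resident macrophages, 261 and 297 CPM in classical monocytes, 168 and 202 CPM in type 1 dendritic cells, and 126 and 106 CPM in type 2 dendritic cells. Clec4a2, or DCIR, had 371 and 407 CPM in resident macrophages, 399 and 398 in C1q-intermediate cells, 296 and 418 in classical monocytes and 222 and 260 in type 2 dendritic cells, but 0 and 3 UMIs in type 1 dendritic cells. Its first 3 classes overlapped. T cells had 17.6 and 20.4 CPM of Clec12a and 13.6 and 25.7 CPM of Clec4a2.

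Among resident macrophages the question in the series' design was that of cells without MHC class II. Cells in which H2-Ab1, H2-Eb1 and H2-Aa summed to under 46.3 UMIs per 10000 were called MHC II-low, 212 and 653 cells against 866 and 989 MHC II-high cells, and 210 of the 2720 cells (7.72%) lay within 1.5-fold of that level. Genes were called measured if either class had 50 CPM or more in hashed sample 1 and likewise in hashed sample 2. They were counted if both hashed samples showed a ratio of 1.5-fold or more in 1 direction, on the log2 scale with 10 CPM added. Of the 9 lectins 7 were measured. Mrc1 and Clec4d were counted as higher in MHC II-low cells, where 2.57% of all 2680 measured genes were, and Mgl2 and Clec4b1 as lower, where 1.68% were. Clec4n, Clec12a and Clec4a2 were counted in neither direction, and Clec10a and Cd209a were not measured. Clec4b1 was under 50 CPM in the MHC II-low cells of both hashed samples, and Clec4d in the MHC II-high cells. Each passed the floor through the class where it was higher. Here and below a gene could pass through 1 class alone, so the number of lectins counted is no measure of how the family behaves.

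The level of Mrc1 was 1446 and 1496 CPM in the MHC II-low group and 679 and 703 CPM in the other. The ratio was 2.13-fold in each hashed sample, with exact conditional intervals of 2.02 to 2.24 and 2.05 to 2.21 for counting error, and the groups did not overlap. For Mgl2 the MHC II-low values were 98.8 and 205 CPM and the MHC II-high values 351 and 925 CPM, which is 3.56-fold (3.03 to 4.20) and 4.50-fold (4.21 to 4.82) lower. Clec4b1 had 23.9 and 27.6 CPM against 55.5 and 120 CPM, 2.32-fold (1.66 to 3.32) and 4.34-fold (3.62 to 5.24) lower, and Clec4d had 98.8 and 58.8 CPM against 45.5 and 33.6 CPM. The Clec4d call was lost under 5 alternatives and that of Clec4b1 under 5. Lectin-free clusters and stricter gates were among them for both, TMM scaling for Clec4d and the mean over cells for Clec4b1. The 8 type 2 dendritic cell markers summed to 67.5 and 70.4 CPM in MHC II-low cells, none reaching 50 CPM, and to 191 and 307 CPM in the MHC II-high group. The genes of tissue dissociation stress had 5 of 10 measured genes lower in MHC II-low cells, Fos and Junb among them, and the part of either in the lectin differences was not tested.

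The differences were graded over 7 bins of the MHC class II level. From cells with under 10 such UMIs per 10000 to those with at least 300, Mrc1 went from 1656 and 1609 CPM to 442 and 463 CPM, with each bin below the one before except 100 to 200 in hashed sample 1 (946 CPM after 896 CPM). Mgl2 went from 91.25 and 162 CPM to 521 and 1424 CPM. Clec4b1 went from 23.15 and 20.9 CPM to 89.2 and 178 CPM, with most of the difference above 200. Clec4d was at 112 and 62.1 CPM in the lowest bin and 21.3 and 19.2 CPM in the highest, with no steady order between. Clec12a and Clec4a2 stayed between 191.5 and 294 CPM and between 313 and 446 CPM over all of these bins.

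**Figure D2:**
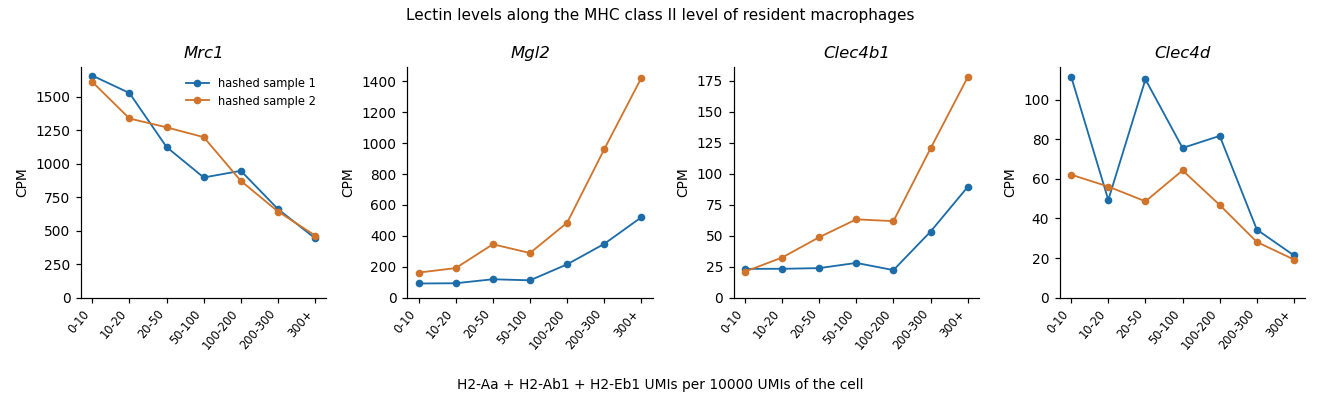
Levels of Mrc1, Mgl2, Clec4b1 and Clec4d in CPM (vertical axes) in resident macrophages divided into 7 bins by the UMIs of 3 MHC class II genes per 10000 (horizontal axis), 1 line per hashed sample. Mrc1 is highest and Mgl2 lowest in the bin under 10, and the 2 lines of Mgl2 part most in the highest bin, at 521 and 1424 CPM.

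States of C1q-positive macrophages, each cell taking the state whose marker sum was furthest above the mean of all such cells, separated the lectins further. The Lyve1 state (Lyve1, Cbr2, Cd163, Folr2, Stab1, Gas6 and Ccl8, genes of long-lived macrophages near vessels) had the most Mrc1, 2081 and 2364 CPM, followed by the Pf4 state with 1116 and 1389 CPM and the Fcgr4 state with 980.3 and 1065 CPM. The Arg1 state had the least, 270.5 and 447 CPM. Mgl2 stood at 1307 and 1613 CPM in the Ear2 state, which was set by Ear2, Itgax and Ccr2, and was lowest in the Lyve1 state, 117 and 136 CPM. In the Arg1 state it was 439 and 1623 CPM, behind the Ear2 and Il1b Cxcl2 states in hashed sample 1 and first in hashed sample 2. Clec4b1 was also highest in the Ear2 state (204 and 245 CPM) and lowest in the Lyve1 state of hashed sample 1 (9.93 CPM) and the Fcgr4 state of hashed sample 2 (0 UMIs). The Clec4d maximum differed between the hashed samples, the Arg1 state with 187 CPM in the first and the Fcgr4 state with 101.5 CPM in the second. Clec4n was highest in the Pf4 state of hashed sample 1 (419.5 CPM) and the Arg1 state of hashed sample 2 (500.2 CPM), and lowest among cycling cells in hashed sample 1 (146 CPM) and hashed sample 2 (208 CPM). The states pool resident and C1q-intermediate cells unequally. In the Ear2 state 54 of 108 and 74 of 172 cells were C1q-intermediate, against 24 of 151 and 39 of 246 in the Lyve1 state. The 8 type 2 dendritic cell markers, Itgax among them, summed to 1195 and 643 CPM in the Ear2 state. In the Lyve1 state they summed to 57.4 and 55.4 CPM. The part of either in the lectin levels of the states was not tested.

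**Figure D3:**
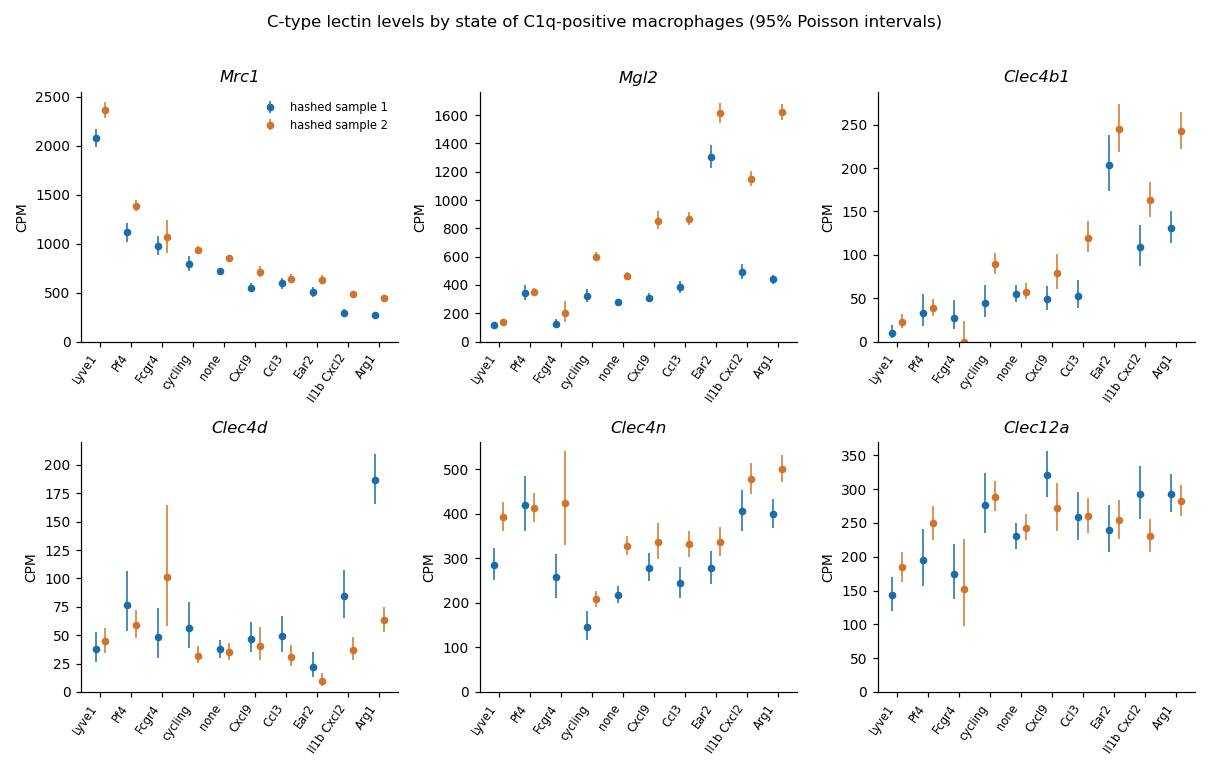
Levels of 6 lectins in CPM (vertical axes, linear from 0) in 9 states of C1q-positive macrophages and in cells of no state, 1 point per hashed sample with its 95% Poisson interval. Mrc1 is highest in the Lyve1 state (2081 and 2364 CPM) and lowest in the Arg1 state (270.5 and 447 CPM), while Mgl2 is lowest in the Lyve1 state and Clec4b1 highest in the Ear2 state.

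Within resident macrophages alone, the Lyve1 state had 2039 and 2315 CPM of Mrc1 against 692 and 860 CPM in the other cells, 2.95-fold (2.79 to 3.12) and 2.69-fold (2.59 to 2.80). Mrc1 was the 1 lectin of 6 measured that was counted as higher, where 5.58% of 2761 genes were, and Mgl2 and Clec4b1 were counted as lower, where 3.55% were. Mgl2 was 118 and 135 CPM against 318 and 695 CPM, and Clec4b1 10.5 and 22.9 CPM against 53.5 and 89.6 CPM. Clec4b1 thus passed the floor through the other cells. Clec10a, Cd209a and Clec4d were not measured. Of these, Clec10a stood at 63.9 and 35.1 CPM in the Lyve1 state against 19.9 and 24.2 CPM in the other cells. That is 3.22-fold (2.30 to 4.45) and 1.45-fold (1.04 to 1.97) higher. Clec12a was lower by 1.84-fold and 1.49-fold, and the second fell short of the call, which it passed with TMM factors. The Clec4b1 call was lost as a mean over cells and with stricter gates. Of 11 stress genes 10 were measured and 7 were lower in the Lyve1 state, Hspa1a, Atf3 and Dusp1 among them, whose part was not tested.

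C1q-intermediate cells were compared with resident macrophages in the same way, a comparison added after the data had been seen. Of 7 lectins measured, Mgl2, Cd209a and Clec4b1 were counted as higher, where 5.31% of 2730 genes were, and Mrc1 as lower, where 5.35% were. Cd209a was under 50 CPM in the resident macrophages of both hashed samples, and Clec4b1 in hashed sample 1. They passed the floor there through the C1q-intermediate cells. Cd209a was 11.9-fold (8.07 to 18.0) and 9.51-fold (7.15 to 12.8) higher, Clec4b1 3.20-fold and 2.84-fold, and Mgl2 2.42-fold and 2.38-fold. Mrc1 was 2.29-fold (2.13 to 2.46) and 1.81-fold (1.72 to 1.90) lower. As means over cells the calls of Mrc1 and Cd209a were lost, as was that of Cd209a with gates 1.5 times stricter, and that of Mrc1 at a 2-fold rule. The 8 type 2 dendritic cell markers summed to 1126 and 1167 CPM in C1q-intermediate cells, with 3 and 4 of the 8 at 50 CPM or more, against 164 and 210 CPM in resident macrophages and 5469 and 5126 CPM in type 2 dendritic cells. The 9 classical monocyte markers summed to 1119 and 1461 CPM in C1q-intermediate cells against 545.5 and 702 CPM in resident macrophages, and 5 of 11 stress genes were higher (median log2 ratio 0.68). The part of any of these in the lectin differences was not tested.

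Along the level of C1q itself, over resident, C1q-intermediate, type 2 dendritic, classical monocyte and unassigned cells, Mrc1 stepped up in each of the 7 bins. It had 123 and 233 CPM under 10 C1q UMIs per 10000 and 1066 and 1262 CPM at 200 or more. Mgl2 stood at 984 and 2047 CPM in the lowest bin and 195 and 418 CPM in the highest, with its peak of 1233 CPM at 10 to 30 in hashed sample 1. Cd209a was at 177 and 407 CPM in the lowest bin against 2.74 and 1.69 CPM in the highest. Clec4b1 was at 152 and 229 CPM against 31.15 and 52.75 CPM, with its highest values at 10 to 30 in hashed sample 1 (213 CPM) and at 30 to 60 in hashed sample 2 (282 CPM).

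**Figure D4:**
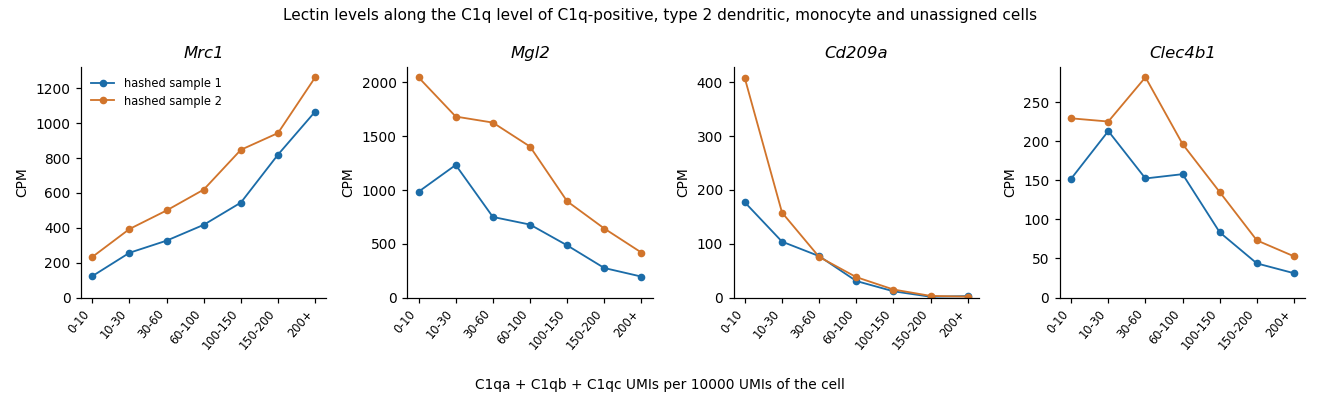
Levels of Mrc1, Mgl2, Cd209a and Clec4b1 in CPM (vertical axes) over 7 bins of the C1q level per 10000 UMIs (horizontal axis), in macrophages, type 2 dendritic cells, classical monocytes and unassigned cells, 1 line per hashed sample. Mrc1 goes up to 1066 and 1262 CPM at the right, where Cd209a is at 2.74 and 1.69 CPM.

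Type 2 dendritic cells against resident macrophages gave 8 measured lectins. Mgl2, Clec10a, Cd209a and Clec4b1 were counted as higher in the dendritic cells, where 9.59% of 2752 genes were, and Mrc1, Clec12a and Clec4a2 as lower, where 13.1% were. Clec10a and Cd209a were under 50 CPM in the resident macrophages of both hashed samples, and Clec4b1 in hashed sample 1. They passed the floor there through the dendritic cells. Cd209a was 63.6-fold (44.7 to 93.4) and 90.0-fold (70.55 to 116.5) higher and Mgl2 6.35-fold (6.02 to 6.71) and 4.59-fold (4.45 to 4.73). Clec4b1 was 4.58-fold and 3.55-fold higher, and Clec10a 2.52-fold (1.98 to 3.20) and 2.66-fold (2.22 to 3.20). Mrc1 was 4.19-fold (3.78 to 4.67) and 3.29-fold (3.08 to 3.53) lower and Clec12a 2.01-fold and 2.48-fold lower, a call lost at a 2-fold rule. Clec4a2, 1.67-fold and 1.57-fold lower, lost its call with TMM factors, with 50 CPM added, and at a 2-fold rule. Clec4n was counted in neither direction.

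Against classical monocytes all 9 lectins were measured. Type 2 dendritic cells were counted as higher in Mrc1, Mgl2, Clec10a, Cd209a and Clec4b1, where 7.94% of 2708 genes were, and as lower in Clec4d and Clec12a, where 10.6% were. In the monocytes Clec10a, Cd209a and Clec4b1 were under 50 CPM in both hashed samples, and Mgl2 in hashed sample 1. Those passed the floor through the dendritic cells, as Clec4d did through the monocytes. Mgl2 was 93.9-fold (53.7 to 182) and 22.4-fold (18.1 to 28.1) higher, from 12 and 85 UMIs in the monocytes. Clec4d was 18.5-fold and 20.9-fold (12.1 to 38.4) lower, and the Clec12a call was lost at a 2-fold rule. Classical monocytes against resident macrophages gave 6 measured lectins, with Clec4d counted as higher, where 7.99% of 2780 genes were, and Mrc1 and Mgl2 as lower, where 7.91% were. Clec4d was 2.99-fold (2.38 to 3.71) and 2.62-fold (2.03 to 3.34) higher in the monocytes. Mrc1 was 12.2-fold (8.996 to 16.9) and 7.99-fold (6.45 to 10.0) lower, and Mgl2 14.8-fold and 4.88-fold lower. These 3 comparisons share their cells pairwise, so they are not independent.

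**Figure D5:**
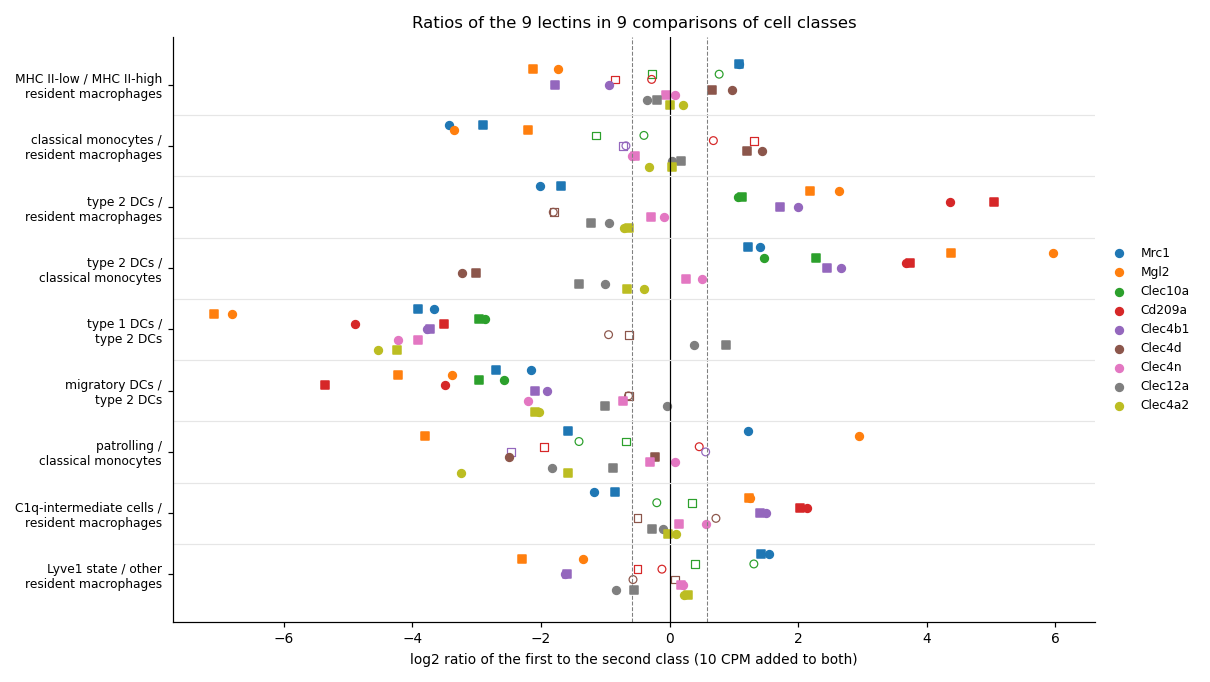
log2 ratio of the first to the second class (horizontal axis, 10 CPM added to both) of the 9 lectins in 9 comparisons, circles for hashed sample 1 and squares for hashed sample 2, filled where the lectin was measured and empty where it was under 50 CPM. Dashed lines mark 1.5-fold, and in type 1 against type 2 dendritic cells every lectin measured except Clec12a lies left of them.

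Type 1 dendritic cells, which cross-present antigen, were compared with type 2. Of 8 measured, 7 were counted as lower and 0 as higher, where 15.8% and 8.7% of 2599 genes were. The 7 were Mrc1, Mgl2, Clec10a, Cd209a, Clec4b1, Clec4n and Clec4a2, and since each passed the floor through the type 2 cells, their number is no measure of how the family behaves. Mgl2 was 274-fold (75.8 to 2264) and 254-fold (129 to 587) lower, from 2 and 8 UMIs. Clec12a was 1.33-fold (0.956 to 1.82) and 1.91-fold (1.55 to 2.34) higher, so that only hashed sample 2 passed the fold. Of 11 stress genes 9 were lower in type 1 cells (median log2 ratio -1.69), and their part was not tested. Migratory dendritic cells, marked by Ccr7 and Fscn1, also gave 8 measured lectins, of which 7 were counted as lower and 0 as higher, where 17.8% and 14.3% of 2658 genes were. Mgl2 was 10.9-fold (8.68 to 14.0) and 19.9-fold (15.3 to 26.4) lower and Clec4n 5.41-fold and 1.69-fold lower, a call lost at a 2-fold rule. Mrc1, Clec10a and Cd209a were under 50 CPM in migratory cells of both hashed samples, and Clec4n and Clec4a2 in hashed sample 1, so they passed the floor through the type 2 cells and the number is again no measure of the family. Clec12a was 122 and 47.5 CPM against 126 and 106 CPM and was counted in neither direction. Of 11 stress genes 8 were lower in migratory cells (median -1.14), and their part was not tested.

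Patrolling against classical monocytes rests on 13 and 23 patrolling cells. Of 6 measured lectins Clec12a and Clec4a2 were counted as lower, where 8.14% of 2825 genes were, and 0 as higher, where 14.2% were. Clec4a2 had 1 and 11 UMIs in the patrolling cells (22.1 and 133 CPM) against 296 and 418 CPM, and Clec12a 3 and 13 UMIs (66.2 and 157 CPM) against 261 and 297 CPM. The Clec12a call was lost at a 2-fold rule. With so few cells the 1.5-fold rule also counts genes that do not differ, so neither call is read as a difference. Mgl2 went opposite ways, 10 UMIs in hashed sample 1 and 0 in hashed sample 2.

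The hashed samples differed in Mgl2. In resident macrophages it was 2.13-fold (2.04 to 2.24) higher in hashed sample 2, and Clec4b1 1.69-fold (1.495 to 1.91), the 2 lectins of 7 measured past 1.5-fold, where 1.58% of 2786 genes were higher and 1.15% lower. The Mgl2 gap was present in both MHC II-low cells (2.08-fold, 1.76 to 2.47) and MHC II-high cells (2.63-fold, 2.50 to 2.77). It was 2.10-fold (1.99 to 2.22) in C1q-intermediate cells and 1.54-fold (1.48 to 1.60) in type 2 dendritic cells, where Mrc1 and Cd209a were past 1.5-fold too, and where 1.67% of 2630 genes were higher and 0.837% lower. In classical monocytes it was 6.46-fold (3.51 to 12.99), from 12 and 85 UMIs. Mrc1 was also higher in hashed sample 2 in C1q-intermediate cells (1.53-fold, 1.41 to 1.66) and classical monocytes (1.85-fold, 1.26 to 2.74), and in resident macrophages by 1.21-fold (1.17 to 1.25), under the rule. Mrc1 within MHC II-low cells (1446 and 1496 CPM) and within MHC II-high cells (679 and 703 CPM) was nearly the same in both, with ratios of 1.04 (0.988 to 1.08) and 1.04 (0.993 to 1.08). Clec4d was past 1.5-fold in the other direction in C1q-intermediate cells, where the ratio of hashed sample 2 to hashed sample 1 was 0.279 (0.217 to 0.356), and in MHC II-low cells (0.595). The labels give no separate animals, and the title names W1 beside W2, so animal, week and handling cannot be told apart here.

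Members were also looked for in the same cells, thinned to 1000 UMIs. In C1q-intermediate cells with an Mgl2 UMI, 26.7% (17.9 to 37.0) and 23.3% (17.7 to 29.7) had a Clec4b1 UMI, against 9.52% (5.92 to 14.3) and 9.09% (5.56 to 13.8) of those without. The intervals did not overlap. For Cd209a in type 2 dendritic cells the shares were 21.5% (14.9 to 29.4) and 42.8% (36.5 to 49.3) against 16.4% (8.15 to 28.1) and 27.8% (16.5 to 41.6), with overlapping intervals, while at 2000 UMIs they were 42.95% and 60.4% against 15.8% and 22.7% and the intervals parted in both hashed samples. Mrc1 in type 2 dendritic cells was found in 19.3% (12.98 to 26.9) and 26.75% (21.3 to 32.8) of cells with an Mgl2 UMI against 6.56% (1.81 to 15.95) and 11.1% (4.19 to 22.6) of those without, with overlapping intervals, and at 2000 UMIs the intervals parted in hashed sample 2 alone. Clec10a in these cells went the other way. It was found in 2.96% (0.813 to 7.41) and 4.12% (1.99 to 7.44) of cells with an Mgl2 UMI. Without one the shares were 6.56% (1.81 to 15.95) and 18.5% (9.26 to 31.4). The Clec10a intervals parted in hashed sample 2 alone, also at 2000 UMIs. In resident macrophages Mrc1 was found in 39.8% (32.6 to 47.3) and 46.7% (42.3 to 51.1) of cells with an Mgl2 UMI and in 48.9% (45.6 to 52.3) and 58.1% (55.1 to 61.0) of those without. The intervals parted in hashed sample 2 and overlapped in hashed sample 1. Clec4n and Clec4a2 in resident macrophages showed 32.0% and 29.05% with against 28.7% and 30.9% without, with overlapping intervals.

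The other 37 C-type lectin genes listed give the setting. Of them 9 reached 50 CPM in a myeloid class or neutrophils in both hashed samples. Clec9a, the receptor for dead cells, stood at 321 and 256 CPM in type 1 dendritic cells, and Ly75, or DEC-205, at 164 and 140 CPM in migratory dendritic cells. Clec4e, or Mincle, the partner of Clec4d, stood at 1045 and 725 CPM in neutrophils and at 183 and 130 CPM in classical monocytes against 27.0 and 22.0 CPM in resident macrophages. In type 2 dendritic cells against resident macrophages 5 of 6 measured were lower and 0 higher, where 13.1% and 9.59% of 2752 genes were. The 5 were Cd93, Clec4a1, Cd302, Clec4a3 and Clec5a, and the median log2 ratio of -1.04 over the 6 stands beside -0.06 over all genes. Of 4 measured, migratory cells had Ly75, Clec2d and Cd302 higher than type 2 cells, where 14.3% of 2658 genes were. Clec4a3 was lower, where 17.8% were. A gene could again pass the floor through 1 class alone, so these numbers are no measure of the family.

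Genes of the signalling path below these receptors were read from a list of 25. Against resident macrophages, type 2 dendritic cells had 6 of 15 measured genes higher (Malt1, Egr2, Tnf, Rel and Nfkb1 among them) and Fcer1g lower, where 9.59% and 13.1% of all genes were, with a median log2 ratio of 0.29. The scaffold protease Malt1 was at 219 and 293 CPM against 50.2 and 46.0 CPM, and the adaptor Fcer1g at 1419 and 1501 against 2299 and 2526 CPM. Type 1 against type 2 dendritic cells gave 8 of 14 lower, where 15.8% of all genes were, with a median of -1.18: Fcer1g was 185 and 178 CPM against 1419 and 1501 CPM, and Syk 23.9 and 22.8 against 97.6 and 113 CPM. MHC II-low against MHC II-high macrophages gave 1 of 12, Malt1, lower (32.5 and 24.7 against 55.3 and 60.8 CPM), and the Lyve1 state 0 of 11. From a list of 14 genes of IL-4-type activation, 3 were measured in MHC II-low against MHC II-high cells and 0 were counted. C1q-intermediate against resident cells gave 5 of 7 higher, Retnla at 158 and 376 CPM against 12.3 and 39.5 CPM among them, where 5.31% of all genes were. Classical monocytes against resident macrophages also gave 5 of 7 higher (Chil3, Ccl24, Klf4, Il13ra1 and Arg1), where 7.99% of all genes were, and Chil3 helped to gate the monocytes. In type 2 dendritic cells 5 of 7 were higher, where 9.59% were, with Irf4 at 67.6 and 74.4 CPM against 6.16 and 6.16 CPM, and Ccl17, also in that list, helped to gate these cells. Beside this, 8 of 11 dissociation stress genes were higher in type 2 dendritic cells than in resident macrophages and 9 of 11 in classical monocytes, and their part was not tested.

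The genes whose levels were most like those of each lectin were found over 16 classes and states in 2 hashed samples, 32 points that share 1 library, by Pearson r of log2(CPM + 10). For Mrc1 these were Dab2 (r = 0.974), Timp2 (0.947) and Camk1 (0.942), and for Mgl2 Plxdc2 (0.936), Colgalt1 (0.871) and Axl (0.847). Clec4b1 was most like Egr2 (0.916) and Plxdc2 (0.871), and Clec4a2 like Sirpa (0.944), Ccr1 (0.938) and Fcgr3 (0.927). Clec4n was also most like Sirpa (0.925), followed by App and Zeb2. The closest for Cd209a was Klrb1b (0.819), for Clec4d Hmox1 (0.867), for Clec12a Hsd17b12 (0.804) and for Clec10a Ccr1 (0.782). Among the lectins themselves r was 0.89 for Clec4n with Clec4a2, 0.87 for Mgl2 with Clec4b1 and 0.71 for Cd209a with Clec4b1, but -0.09 for Mrc1 with Cd209a. States overlap with the classes in their cells, so the points are not independent and no p-value is given.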

How the data were processed

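Droplet 3′ RNA-seq was analysed as deposited: unnormalized UMI counts, from Cell Ranger 6.1.1 per the file headers. Cell Ranger 6.0, Seurat 4.3.0 and mm10 stand in the submitters' processing notes. Labels naming human kidneys, mesenchymal stem cells and week 1 go against the mouse gene table or the other labels and were not used. The Visium sample was not analysed here.

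Barcodes under 200 genes or 500 UMIs, or over 10% mitochondrial UMIs, were removed (414), and Scrublet (40 cells) and weak hashtags (5 cells), together 0.682%, were removed as doublets. UMIs were summed per class and hashed sample and scaled to CPM. With 1 GEO sample no test was made. Intervals are 95% and exact (Poisson, Clopper-Pearson, conditional) and cover counting error only. Levels of different genes were not compared. Some genes of the marker and signalling lists are not reported here. The call rule was tested on simulated data for 3 comparisons, and for patrolling monocytes, with few cells, it also counted genes that did not differ. Named genes are the 10 lectins, the 3 most like each by Pearson r among genes of at least 100 CPM, and list genes counted in a comparison, at most 6 per list and comparison.

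The lectins and lists were chosen with earlier results of these data known. Gate levels, the C1q limits, the need for a UMI of Flt3, Zbtb46, Dpp4, Kmo or H2-DMb2 in type 2 dendritic cells and the naming of clusters were set after the data, lectin levels included, had been seen. Of the 9 comparisons 7 were planned, and those of C1q-intermediate cells and of the Lyve1 state were added. There were 449 cells within 1.2-fold of the upper C1q limit and 132 near the lower one. Alternatives were TMM factors (edgeR 4.0.16, used on the counts for scaling only), floors, pseudocounts, the fold, lectin-free clusters, deeper cells, means over cells, each hashed sample alone and stricter gates. Versions were Python 3.11.15, scanpy 1.11.5, anndata 0.12.19, numpy 2.4.6, scipy 1.17.1, pandas 2.3.3, scikit-learn 1.9.0, leidenalg 0.10.2, matplotlib 3.10.9 and R 4.3.3.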

Additional observations from a re-analysis of the deposited data

How the results depend on the processing

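Of 1035 pairs of a lectin, a comparison and an alternative 984 kept their side of the 1.5-fold rule, 23 lost the call and 28 gained it, and no lectin counted in the report changed direction. Mrc1 and Mgl2 in patrolling against classical monocytes, which were not counted, took log2 ratios of 1.22 and 2.94 from hashed sample 1 alone and of -1.58 and -3.80 from hashed sample 2 alone. The count of all genes past the rule was 114 for MHC II, 442 for classical monocytes to resident macrophages, 624 for type 2 to resident, 501 for type 2 to classical, 636 for type 1 to type 2, 853 for migratory to type 2, 632 for patrolling to classical, 291 for C1q-intermediate to resident and 252 for Lyve1 state. With a floor of 10 CPM it was 185 (MHC II), 875 (classical monocytes to resident macrophages), 1148 (type 2 to resident), 952 (type 2 to classical), 1335 (type 1 to type 2), 1663 (migratory to type 2), 1520 (patrolling to classical), 499 (C1q-intermediate to resident) and 431 (Lyve1 state). With no floor it was 188 (MHC II), 940 (classical monocytes to resident macrophages), 1220 (type 2 to resident), 1040 (type 2 to classical), 1474 (type 1 to type 2), 1806 (migratory to type 2), 1891 (patrolling to classical), 510 (C1q-intermediate to resident) and 454 (Lyve1 state). With 50 CPM added it was 68 (MHC II), 293 (classical monocytes to resident macrophages), 383 (patrolling to classical) and 178 (C1q-intermediate to resident). At 2-fold it was 43 (MHC II), 216 (classical monocytes to resident macrophages), 347 (type 2 to resident), 271 (type 2 to classical), 360 (type 1 to type 2), 499 (migratory to type 2), 259 (patrolling to classical), 118 (C1q-intermediate to resident) and 113 (Lyve1 state). The number of lectins counted moved from the reported one by more than 1.5 times to 2 for MHC II (pseudocount of 50 CPM), to 2 for MHC II (at least 2-fold), to 2 for MHC II (lectin-free clusters), to 2 for MHC II (gate levels 1.5 times stricter), to 5 for classical monocytes to resident macrophages (floor of 10 CPM), to 5 for classical monocytes to resident macrophages (no floor), to 1 for patrolling to classical (at least 2-fold) and to 2 for C1q-intermediate to resident (mean over cells). Leaving out 1 hashed sample in turn, so that the other alone decided, gave 198 to 224 genes (MHC II), 720 to 754 genes (classical monocytes to resident macrophages), 796 to 831 genes (type 2 to classical), 940 to 1063 genes (type 1 to type 2), 1240 to 1318 genes (migratory to type 2), 4 to 5 lectins (patrolling to classical), 1632 to 1925 genes (patrolling to classical), 3 to 5 lectins (Lyve1 state) and 377 to 385 genes (Lyve1 state). TMM factors moved the median log2 ratio of all measured genes by more than 0.1 in 5 comparisons: -0.13 for MHC II (higher genes went from 60.5% to 40.9% of those counted), 0.13 for type 2 to resident (42.3% to 54.2%), 0.17 for type 2 to classical (42.9% to 58.0%), -0.43 for patrolling to classical (63.6% to 18.6%) and -0.11 for the Lyve1 state (61.1% to 47.7%). Of 63 levels 3 moved, and of 9 co-detections 6 moved at 2000 UMIs. The cause of these changes was not tested, except that lower floors test more genes and a higher fold counts fewer.

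Each comparison was made within each hashed sample, which pairs the classes. No paired analysis was possible because a replicate block needs a test across samples, and there was none. The lectin-free clusters held no patrolling cluster, and the 2 added comparisons were not run on clusters. Protein features were planned and not run. In the comparisons, leaving out T cell marker UMIs and stricter gates were alternatives chosen after seeing the data. Few cells and few summed UMIs limit the patrolling monocytes and neutrophils most. Type 1 dendritic cells were also few (31 and 63), but not shallow, with medians of 9788 and 11225 UMIs. In all of these classes several lectins rest on fewer than 10 UMIs.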
